A study of Mus musculus with 18 samples.

Results

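The 9 genes described here are extracellular matrix proteoglycan genes, followed through a bulk RNA-seq experiment on mouse aortic smooth muscle cells: the small leucine-rich proteoglycans Bgn, Dcn, Aspn, Fmod, Lum, Prelp, Ogn and Podn, and the large proteoglycan Vcan. They were chosen by gene name, and all 9 of the 9 were present among the 57180 genes of the deposited count table. The cells were labelled smooth muscle cells of C57BL/6 thoracic aorta and formed 6 groups of 3 libraries. The groups were scramble siRNA unstimulated (label Scramble), Itgav siRNA unstimulated (ITGAV siRNA), scramble siRNA with TGF-β (TGFBeta+Scramble), Itgav siRNA with TGF-β (TGFBeta+ITGAV siRNA), scramble siRNA with PDGF-BB (PDGFBB+Scramble) and Itgav siRNA with PDGF-BB (PDGFBB+ITGAV siRNA). Scramble siRNA is a control without an intended target, and Itgav encodes integrin αV, a receptor chain for matrix proteins and latent TGF-β. The series title presents integrin αV as a candidate target in aneurysm and dissection of the aorta. All groups were transfected and cultured, so none is untouched aortic tissue, and the age and number of the mice, doses, times and the siRNA sequence were not stated in these sources.

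Small leucine-rich proteoglycans are secreted proteins built of leucine-rich repeats that bind collagen fibrils and growth factors and shape fibril spacing. Several carry chains of chondroitin, dermatan or keratan sulfate. Versican is a much larger chondroitin sulfate proteoglycan that binds hyaluronan and, in the arterial wall, is made by smooth muscle cells and swells the matrix around them. TGF-β is known to raise matrix synthesis in these cells, and PDGF-BB is known as a mitogen that moves them away from the contractile state.

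Library totals ran from 17705072 to 21592916 counts. Itgav itself lay between 300 and 553 CPM (counts per 1000000, scaled by TMM) in the 9 scramble libraries and between 14.1 and 29.7 CPM in the 9 Itgav siRNA libraries, with no overlap. The 7 smooth muscle markers listed (Acta2, Myh11, Tagln, Cnn1, Smtn, Des and Lmod1) were present in every group, with a summed level of 2080 to 2130 CPM in unstimulated scramble cells. The sign ± stands for the SD of 3 libraries where it follows CPM, and for the standard error where it follows a log2 fold change. A gene was called, and is said to rise or fall, where edgeR's quasi-likelihood adjusted p (Benjamini-Hochberg, all 15832 genes tested) was under 0.05. Whether the replicates came from separate cultures is not stated in the labels. The p-values thus reflect only how far these libraries spread, and that spread may be technical.

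The 9 genes covered a wide range of levels. Scaled by transcript length, Bgn stood first in all 6 groups, at 2200 ± 3.84 CPM per kilobase in unstimulated scramble cells. Prelp followed there at 126 ± 4.14, Fmod at 76.6 ± 1.17, Ogn at 54.6 ± 1.61 and Dcn at 16.9 ± 0.514 CPM per kilobase. Vcan (5.56 ± 1.05), Podn (4.39 ± 0.229), Aspn (1.85 ± 0.051) and Lum (0.285 ± 0.148 CPM per kilobase) came last. The order below Bgn changed with the group. With TGF-β and Itgav siRNA, Vcan stood in second place at 23.6 ± 0.827, above Fmod at 21.4 ± 0.852, Aspn at 12.1 ± 0.493 and Prelp at 11.4 ± 0.528 CPM per kilobase. Lum was ninth in every group. Bgn alone held 84.1% to 94.5% of the unscaled counts of the 9 genes in each library, and the 9 together held 0.328% to 0.72% of all counts.

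**Figure D1:**
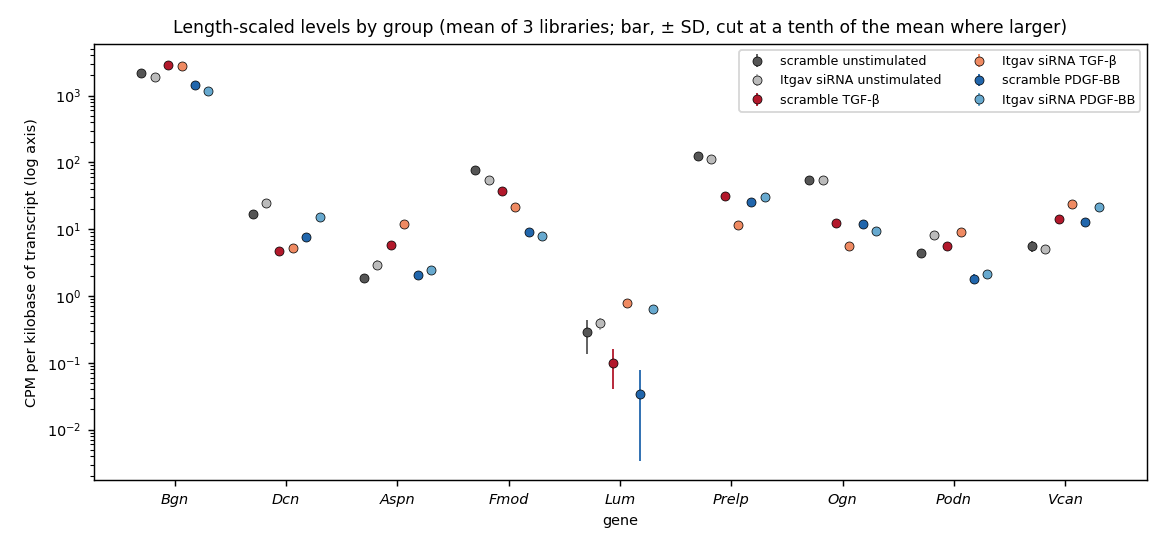
Levels of the 9 genes scaled by transcript length (CPM per kilobase, log axis) in each of the 6 groups; points are means of 3 libraries and bars are SDs, with long lower bars shortened so that they stay on the log axis. Bgn stands far above the others in all groups, at 1160 to 2890 CPM per kilobase, and Lum is lowest throughout.

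All 9 genes passed the low-count filter. With TGF-β in scramble cells, 4 members rose (Bgn, Aspn, Podn, Vcan) and 5 fell (Dcn, Fmod, Lum, Prelp, Ogn), where 23.4% of all genes tested rose and 24.8% fell. With PDGF-BB in scramble cells, 1 member rose (Vcan) and 7 fell (all others except Aspn), against 16.9% and 19.2% of all genes. The median log2 fold change of the 9 was -1.03 with TGF-β and -1.29 with PDGF-BB, beside -0.01 and 0.01 over all genes. Of the 9, 7 moved at least 2-fold with each stimulus. In Itgav siRNA cells, TGF-β raised 4 and lowered 4 (27.9% and 29.6% of all genes), and PDGF-BB raised 1 and lowered 6 (17.2% and 19.2%). Both stimuli were compared with the same unstimulated libraries.

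Itgav siRNA moved members in each medium. Without a stimulus, 3 rose (Dcn, Aspn, Podn) and 3 fell (Bgn, Fmod, Prelp), where 25.9% of all genes rose and 27.5% fell. With TGF-β, 4 were higher under the siRNA (Aspn, Lum, Podn, Vcan) and 3 lower (Fmod, Prelp, Ogn), against 24.1% and 24.3% of all genes. With PDGF-BB, 5 were higher (Dcn, Lum, Prelp, Podn, Vcan) and 3 lower (Bgn, Fmod, Ogn), against 29.4% and 29.9%. Fmod was the only member lower under the siRNA in all 3 media, and Podn the only member higher in all 3. With PDGF-BB the Podn groups overlapped, and that call was lost when certain single libraries were left out, as given below. With so large a share of all genes called, a count of members alone sets them little apart, and the sizes below carry the description. In this bulk RNA, fewer cells of a type and less RNA per cell cannot be told apart.

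**Figure D2:**
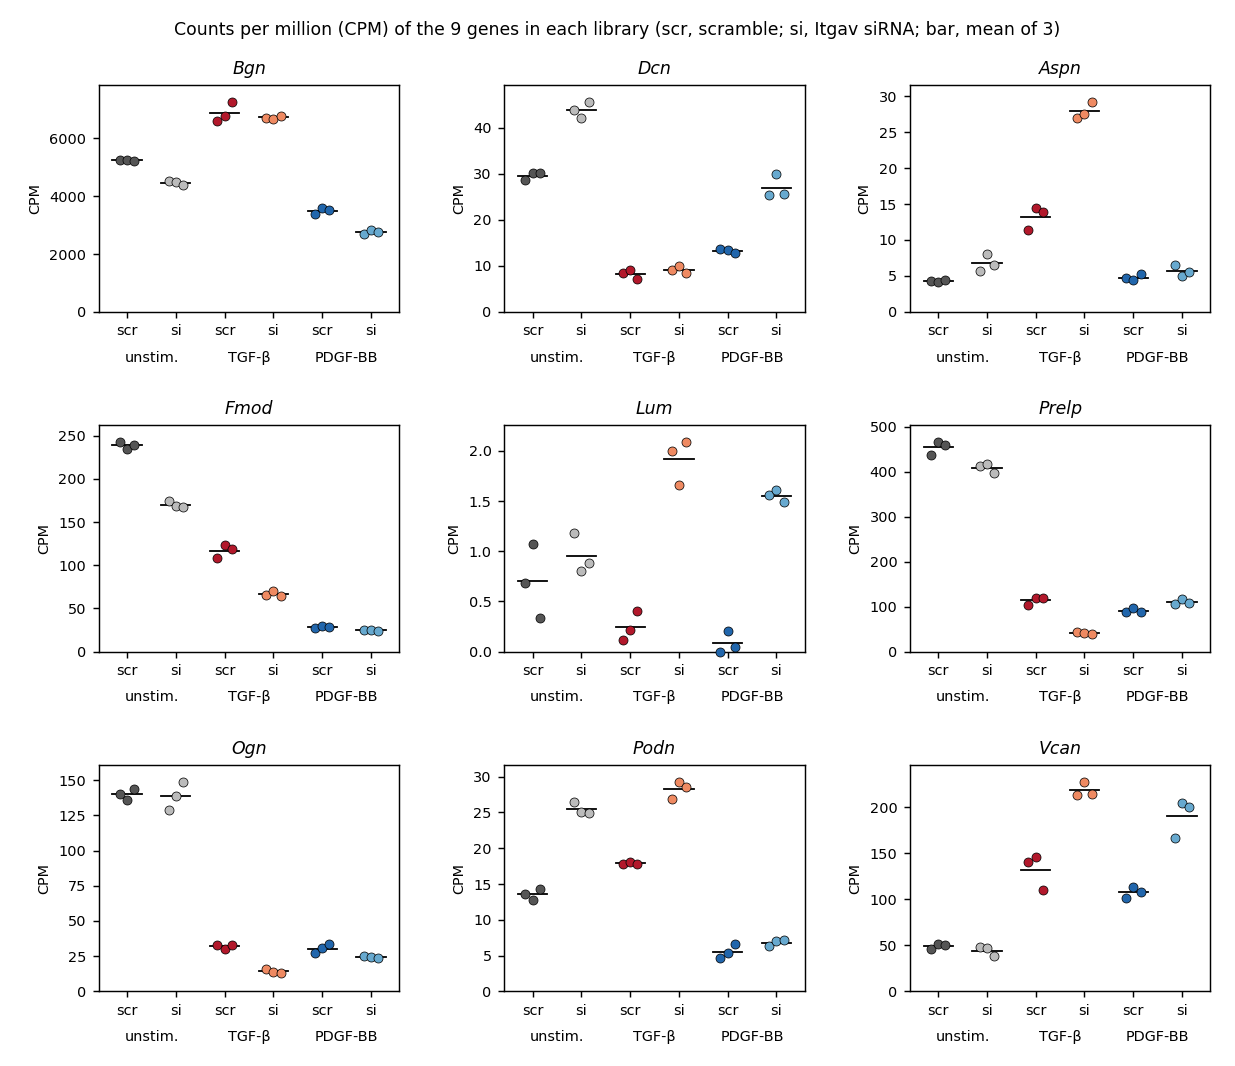
CPM of each of the 9 genes in every library; each point is a library, each bar the mean of 3, and scr and si mark scramble and Itgav siRNA cells. Prelp, Ogn and Fmod are highest in the unstimulated groups, while Vcan is high in all 4 stimulated groups (101 to 228 CPM) and low in both unstimulated groups (38.7 to 51.2 CPM).

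Vcan rose with both stimuli, and rose further under Itgav siRNA in both. Unstimulated libraries held 46.5, 51.2 and 50.1 CPM with scramble and 47.7, 46.8 and 38.7 CPM with Itgav siRNA. These ranges overlapped, and the siRNA difference was not called (log2 fold change -0.15 ± 0.1, adjusted p = 0.22). With TGF-β Vcan was at 141, 146 and 110 CPM in scramble and at 214, 228 and 215 CPM in siRNA libraries. With PDGF-BB the corresponding values were 101, 114 and 108 CPM, and 167, 205 and 200 CPM. Every siRNA library thus lay above every scramble library within each stimulus. The log2 fold change of TGF-β was 1.42 ± 0.0958 in scramble cells (adjusted p = 3.1e-11) and 2.3 ± 0.097 in siRNA cells (adjusted p = 4.4e-15). For PDGF-BB it was 1.13 ± 0.0957 (adjusted p = 3.7e-09) and 2.1 ± 0.0967 (adjusted p = 9.7e-14).

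The siRNA effect on Vcan itself differed between media. It was 0.73 ± 0.0898 with TGF-β (adjusted p = 5.4e-07) and 0.82 ± 0.0902 with PDGF-BB (adjusted p = 7.4e-08), both log2. Set against the unstimulated siRNA effect, the difference was 0.88 ± 0.135 with TGF-β (adjusted p = 4.1e-05) and 0.97 ± 0.135 with PDGF-BB (adjusted p = 3.1e-05). Both differences use the same unstimulated libraries. In scramble cells Vcan was also higher with TGF-β than with PDGF-BB (0.29 ± 0.0912, adjusted p = 0.0093), although the groups overlapped. That call was lost without replicate 2 of scramble TGF-β (0.22, adjusted p = 0.069), and adjusted p ran from 6.5e-07 to 0.069 over all alternatives. Without a low-count filter the unstimulated siRNA decrease of Vcan was called (-0.15, adjusted p = 0.044), with a range of 0.044 to 0.71 over the alternatives.

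Vcan lies on the minus strand of chromosome 13 (GRCm38, chr13:89655312-89742509, GENCODE M21), and alternative splicing of its GAG-alpha and GAG-beta exons, which encode the stretches that carry chondroitin sulfate, gives the isoforms V0, V1, V2 and V3. The GAG-alpha exon is 2880 bases long and the GAG-beta exon 5217. The joins that tell the isoforms apart are shown because the isoform estimates depend on reads that cross them or fall in those exons. Each line holds the last 30 coding bases of the upstream exon in lower case and the first 30 of the downstream exon in capitals, 5′ to 3′, on the minus strand.
Upstream exon to GAG-alpha (V0 and V2): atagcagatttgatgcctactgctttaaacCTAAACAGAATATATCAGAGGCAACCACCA
Upstream exon to GAG-beta (V1): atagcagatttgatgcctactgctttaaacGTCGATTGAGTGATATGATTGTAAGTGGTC
Upstream exon to the exon after both (V3): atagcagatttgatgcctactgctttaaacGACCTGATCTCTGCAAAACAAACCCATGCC
GAG-alpha to GAG-beta (V0): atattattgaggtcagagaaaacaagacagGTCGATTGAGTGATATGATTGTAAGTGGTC
GAG-alpha to the exon after both (V2): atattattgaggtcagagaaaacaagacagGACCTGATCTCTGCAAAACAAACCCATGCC

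The upstream exon ends at position 89712205 on chromosome 13, and the downstream exons begin at 89705797 for GAG-alpha, 89693501 for GAG-beta and 89685192 for the exon after both. V0, which holds both GAG exons, was the main isoform in every group. Its share of the 4 isoforms, by counts per length, was 73.6%, 67.6% and 61.6% in the unstimulated scramble libraries and 64.6%, 69.4% and 73.4% in the unstimulated siRNA libraries. With TGF-β it was 64.4%, 63% and 58.3% in scramble and 56.2%, 61.2% and 63.4% in siRNA cells. With PDGF-BB it was 61.2%, 55.8% and 55.5% in scramble and 60.4%, 55.8% and 58.4% in siRNA cells. The stimulated means (57.5% to 61.9%) were below the unstimulated means (67.6% and 69.1%), but the unstimulated and TGF-β libraries overlapped. The PDGF-BB libraries, at 61.2% or below, did not reach the unstimulated ones, at 61.6% or above.

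V1, with the GAG-beta exon alone, made up most of the rest, at means of 27.9% to 39.6%. V3, with neither exon, averaged 0.469% to 4.04%, on at most 30.1 counts in a library. V2 had at most 6.63 counts in any library. The transcript counts are the authors' estimates, and the shares were worked out here from those counts and the annotated lengths. Without the division by length, V0 averaged 75.8% in unstimulated scramble cells, beside 67.6% with it. The annotated isoforms also differ at their 3′ ends. No test of the shares was run, so they are given as a description. The 4 isoforms held 96% to 99.1% of the Vcan counts. An antisense gene, Gm4117, overlaps the 5′ end of Vcan and had 1490 counts over the 18 libraries. Without a stated strand for the counting, reads shared by the pair cannot be told apart.

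**Figure D3:**
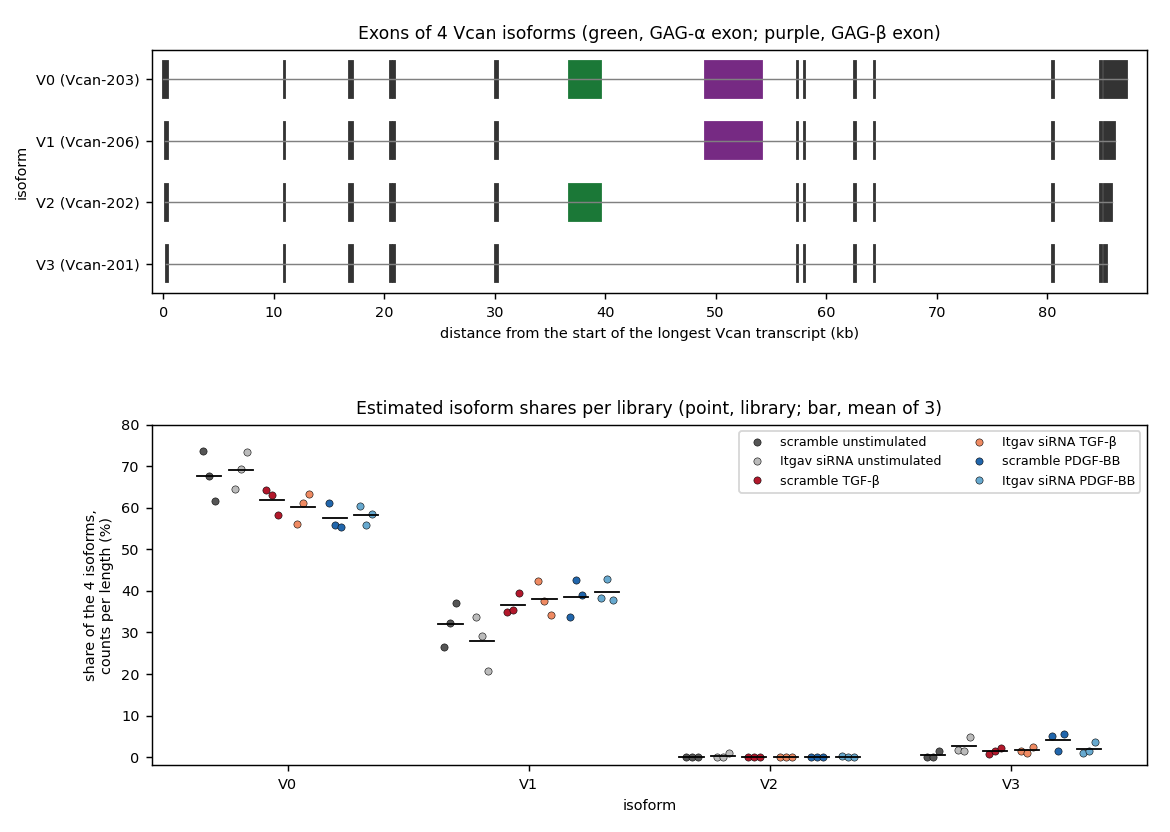
Top, exons of the 4 Vcan isoforms against the distance in kilobases from the start of the longest transcript, with the GAG-alpha exon in green and the GAG-beta exon in purple; bottom, each isoform's share of the 4 by counts per length (percent), with a point per library and a bar for the mean of 3. V0 holds 55.5% to 73.6% in every library, V1 most of the rest, and V2 and V3 lie near 0.

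Versican binds hyaluronan, and the genes of that matrix were taken as a list. Of 12 listed hyalectans, link proteins and hyaluronan genes, 8 were tested, and with TGF-β in scramble cells 6 of them rose and none fell (median log2 fold change 1.48, beside -0.01 over all genes). Acan, which encodes aggrecan, the cartilage hyalectan, rose by 5.77 ± 0.177 (adjusted p = 4.2e-17). Has2, a hyaluronan synthase, rose by 3.23 ± 0.295 (adjusted p = 5.5e-09), and Cd44, the hyaluronan receptor, by 0.69 ± 0.042 (adjusted p = 5.7e-12), all log2. Has2 was low, at means of 0.374 CPM unstimulated and 3.51 CPM with TGF-β. With TGF-β 23.4% of all genes rose and 24.8% fell. With PDGF-BB 1 of the 8 rose and 1 fell (median -0.2), beside 16.9% and 19.2% of all genes. Under Itgav siRNA without a stimulus 2 rose and 1 fell, beside 25.9% and 27.5% of all genes. With TGF-β the siRNA raised 4 and lowered 1, beside 24.1% and 24.3%, and with PDGF-BB it raised 5 and lowered 2, beside 29.4% and 29.9%. Cd44 was among those raised by the siRNA in each medium, by 0.44 ± 0.042 unstimulated (adjusted p = 1.2e-08), 0.89 ± 0.0415 with TGF-β (adjusted p = 8.9e-14) and 0.24 ± 0.0408 with PDGF-BB (adjusted p = 2.3e-05). Acan fell under the siRNA with TGF-β (-0.95 ± 0.118, adjusted p = 6.1e-07).

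Of 11 listed proteases that cleave versican or process these proteoglycans, 9 were tested. With TGF-β in scramble cells 4 rose and 5 fell, beside 23.4% and 24.8% of all genes. With PDGF-BB 3 rose and 3 fell, beside 16.9% and 19.2%. Adamts1 and Adamts5, both versican-cleaving enzymes, were lower with TGF-β (-1.4 ± 0.0398, adjusted p = 1.2e-17, and -1.01 ± 0.0543, adjusted p = 6.3e-13) and lower with PDGF-BB (-1.23 ± 0.0395, adjusted p = 3.9e-16, and -1.16 ± 0.0544, adjusted p = 1.9e-13). In scramble cells Adamts9, also listed, went from a mean of 10.4 CPM unstimulated to 1.44 with TGF-β and 5.97 with PDGF-BB. The mean of Adamts4, of the same list, was not lower, at 5.29 CPM unstimulated, 7.3 with TGF-β and 6.73 with PDGF-BB. Tll1, a relative of the procollagen protease Bmp1, rose with TGF-β by 2.21 ± 0.0826 (adjusted p = 1.2e-15). Under Itgav siRNA, 2 fell and none rose without a stimulus, 2 rose and 4 fell with TGF-β, and 3 rose and 4 fell with PDGF-BB. Of all genes, 25.9% rose and 27.5% fell without a stimulus, 24.1% and 24.3% with TGF-β, and 29.4% and 29.9% with PDGF-BB. Adamts1 fell under the siRNA in all 3 media, by 0.71 without a stimulus (adjusted p = 1.1e-12), by 0.66 with TGF-β (adjusted p = 8.3e-12) and by 0.88 with PDGF-BB (adjusted p = 5.2e-14) on the log2 scale. The Adamts4 means in siRNA cells were 4.85 CPM without a stimulus, 12.4 with TGF-β and 15.8 with PDGF-BB, above the scramble means with both stimuli.

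**Figure D4:**
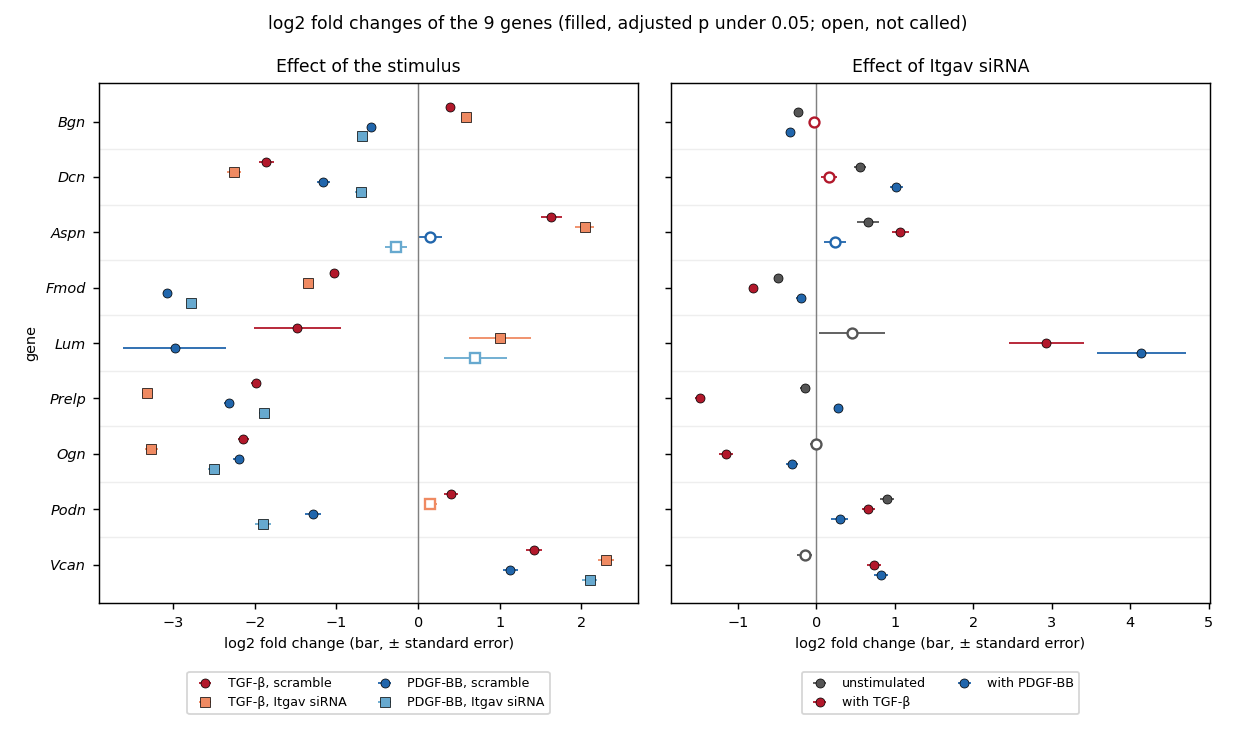
log2 fold changes of the 9 genes (rows) with their standard errors; left, TGF-β or PDGF-BB against unstimulated cells under scramble or Itgav siRNA, and right, Itgav siRNA against scramble in each medium. Filled points were called at an adjusted p under 0.05 and open points were not; the Prelp points at right lie on both sides of 0, at -1.48 with TGF-β and 0.28 with PDGF-BB.

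Bgn encodes biglycan, a collagen-binding proteoglycan with chondroitin or dermatan sulfate chains, and, like Podn, rose with TGF-β and fell with PDGF-BB. It stood at 5260, 5240 and 5230 CPM in unstimulated scramble libraries, at 6620, 6790 and 7260 CPM with TGF-β and at 3370, 3600 and 3520 CPM with PDGF-BB. The 3 groups did not overlap, and the log2 fold changes were 0.39 ± 0.0327 with TGF-β (adjusted p = 1.2e-09) and -0.58 ± 0.0328 with PDGF-BB (adjusted p = 3.8e-12). Itgav siRNA lowered Bgn to 4530, 4500 and 4390 CPM without a stimulus (-0.23 ± 0.0327, adjusted p = 3.7e-06) and to 2710, 2830 and 2760 CPM with PDGF-BB (-0.34 ± 0.0328, adjusted p = 1.1e-08). With TGF-β the siRNA libraries held 6720, 6690 and 6790 CPM and overlapped the scramble libraries (-0.03 ± 0.0327, adjusted p = 0.44). Between TGF-β and unstimulated cells the siRNA effect differed by 0.2 ± 0.0462 (adjusted p = 0.0032). For PDGF-BB it was -0.11 ± 0.0463 (adjusted p = 0.11), and leaving out replicate 1 of scramble PDGF-BB brought it past the threshold (-0.14, adjusted p = 0.039).

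Dcn encodes decorin, the close relative of biglycan that binds type I collagen and TGF-β. It fell with both stimuli and rose under Itgav siRNA. Unstimulated scramble libraries held 28.6, 30.2 and 30.1 CPM, TGF-β libraries 8.41, 9.03 and 7.06 CPM and PDGF-BB libraries 13.7, 13.4 and 12.8 CPM. All 3 groups were apart, with log2 fold changes of -1.86 ± 0.0894 for TGF-β (adjusted p = 1e-13) and -1.16 ± 0.082 for PDGF-BB (adjusted p = 2e-10). The siRNA libraries held 43.8, 42.1 and 45.6 CPM without a stimulus (0.56 ± 0.0742, adjusted p = 1.2e-06) and 25.3, 29.9 and 25.7 CPM with PDGF-BB (1.02 ± 0.0827, adjusted p = 6e-10). With TGF-β they held 9.15, 9.93 and 8.4 CPM, overlapping scramble (0.16 ± 0.103, adjusted p = 0.21). Of the siRNA libraries with PDGF-BB, that at 29.9 CPM lay within the range of unstimulated scramble cells. Those at 25.3 and 25.7 CPM lay below that range.

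The siRNA effect on Dcn was larger with PDGF-BB than without a stimulus by 0.46 ± 0.111 (adjusted p = 0.0062) and smaller with TGF-β by a difference of -0.4 ± 0.127 (adjusted p = 0.025). The second of these was lost when single libraries were left out: scramble unstimulated replicate 1 (-0.38, adjusted p = 0.054), Itgav siRNA unstimulated replicate 3 (-0.38, 0.05), scramble TGF-β replicate 1 (-0.4, 0.055) or 2 (-0.33, 0.096), or Itgav siRNA TGF-β replicate 3 (-0.35, 0.074). Over all alternatives its adjusted p ran from 0.0056 to 0.096.

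Adventitial fibroblasts, a neighbouring cell type known for Dcn and Lum, were checked with 10 markers that include neither gene. All 10 were tested and none was at 0 in any group. Their summed level was 1300 to 1370 CPM in unstimulated scramble libraries and 1600 to 1670 CPM in the siRNA libraries, 970 to 1050 and 860 to 914 CPM with TGF-β, and 1480 to 1560 and 1660 to 1850 CPM with PDGF-BB. Gsn and Ly6a held most of this sum. In scramble cells their means were 705 and 424 CPM unstimulated, and 805 and 65.3 CPM with TGF-β. The direction of the sum matched that of Dcn for TGF-β in scramble cells and for the siRNA without a stimulus and with PDGF-BB. It did not match for PDGF-BB in scramble cells, where the sum was higher and Dcn fell. In siRNA cells the sum was not lower with PDGF-BB, where Dcn also fell (log2 fold change -0.7 ± 0.0749, adjusted p = 1.2e-07). Under the siRNA with TGF-β the sum was lower, where Dcn was not called. By gene, 3 rose and 6 fell with TGF-β, 6 rose and 3 fell with PDGF-BB, and under the siRNA 7 rose and 2 fell without a stimulus, 2 rose and 4 fell with TGF-β, and 5 rose and 1 fell with PDGF-BB. Of all genes, 23.4% rose and 24.8% fell with TGF-β in scramble cells, and 16.9% and 19.2% with PDGF-BB. Under the siRNA the shares were 25.9% and 27.5% without a stimulus, 24.1% and 24.3% with TGF-β, and 29.4% and 29.9% with PDGF-BB. The part of fibroblasts in the changes of Dcn was not tested.

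Aspn encodes asporin, a class I member without a glycosaminoglycan chain that binds collagen and TGF-β. It rose with TGF-β and rose further under Itgav siRNA. Unstimulated scramble libraries held 4.35, 4.16 and 4.36 CPM, and TGF-β libraries 11.4, 14.5 and 13.9 CPM with scramble and 27, 27.6 and 29.2 CPM with siRNA. None of these groups overlapped. TGF-β raised Aspn by 1.63 ± 0.129 in scramble cells (adjusted p = 5e-10) and 2.04 ± 0.116 in siRNA cells (adjusted p = 9.7e-13), and the siRNA raised it by 1.07 ± 0.108 with TGF-β (adjusted p = 2.8e-08), all log2. Without a stimulus the siRNA libraries held 5.74, 8.03 and 6.58 CPM, all above scramble (0.66 ± 0.138, adjusted p = 0.00033). The siRNA effect was not called as different between these media (0.41 ± 0.176, adjusted p = 0.1), but passed without replicate 2 of unstimulated siRNA cells (0.54, adjusted p = 0.035), with a range of 0.035 to 0.27 over the alternatives.

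Aspn did not pass with PDGF-BB. Scramble libraries then held 4.65, 4.43 and 5.23 CPM (0.15 ± 0.144, adjusted p = 0.44) and siRNA libraries 6.45, 4.92 and 5.54 CPM (siRNA effect 0.24 ± 0.138, adjusted p = 0.15). In siRNA cells the log2 fold change of PDGF-BB was -0.27 ± 0.133 (adjusted p = 0.12). It was called at -0.38 without replicate 1 of unstimulated siRNA cells (adjusted p = 0.042) or replicate 1 of siRNA cells with PDGF-BB (adjusted p = 0.047).

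Enzymes that build the chondroitin and dermatan sulfate chains carried by biglycan, decorin and versican were listed apart. All 20 were tested, and with TGF-β in scramble cells 16 rose and 1 fell (median log2 fold change 0.65, beside -0.01 over all genes). Of all genes, 23.4% rose and 24.8% fell. Chsy1, a chondroitin polymerase, rose by 1.78 ± 0.0484 (adjusted p = 5.2e-18), the polymerising factor Chpf2 by 1.25 ± 0.0465 (adjusted p = 1.1e-15) and the sulfotransferase Chst3 by 2.87 ± 0.123 (adjusted p = 1.4e-14). With PDGF-BB 5 of the 20 rose and 6 fell (median 0.01), beside 16.9% and 19.2% of all genes. Dse, the epimerase that turns chondroitin into dermatan sulfate, fell by 0.44 (adjusted p = 1.3e-06), and the sulfotransferase Ust fell by 0.71 (adjusted p = 3e-06).

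Under Itgav siRNA, 10 of these 20 enzymes rose and 2 fell without a stimulus, 14 rose and 1 fell with TGF-β, and 13 rose and 3 fell with PDGF-BB. The medians were 0.19, 0.55 and 0.47 on the log2 scale, beside 0.01 over all genes in each. Of all genes, 25.9% rose and 27.5% fell without a stimulus, 24.1% and 24.3% with TGF-β, and 29.4% and 29.9% with PDGF-BB. Xylt1, which adds the first sugar of the chain to the core protein, rose by 1.97 ± 0.158 without a stimulus (adjusted p = 6.3e-10) and by 3.34 ± 0.147 with PDGF-BB (adjusted p = 2.5e-14). With TGF-β its mean was also higher under the siRNA, at 14 CPM against 3.98 CPM with scramble. Chsy1 rose by 1.15 ± 0.0441 with TGF-β (adjusted p = 3.7e-15). In TGF-β cells given the siRNA, the summed level of the 20 was 1490 to 1500 CPM, against 1080 to 1100 CPM with scramble.

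Fmod encodes fibromodulin, a class II member with keratan sulfate chains that binds fibrillar collagen. It fell with both stimuli. Unstimulated scramble libraries held 243, 235 and 239 CPM, TGF-β libraries 108, 123 and 119 CPM and PDGF-BB libraries 27.6, 29.8 and 28.2 CPM. The groups were far apart, at -1.03 ± 0.0474 for TGF-β (adjusted p = 4.5e-14) and -3.07 ± 0.0532 for PDGF-BB (adjusted p = 2.2e-20), which left 11.9% of the unstimulated level. Itgav siRNA lowered it to 175, 169 and 167 CPM without a stimulus (-0.49 ± 0.0464, adjusted p = 1e-08) and to 65.8, 69.7 and 64.7 CPM with TGF-β (-0.81 ± 0.0498, adjusted p = 9.3e-12). With PDGF-BB the siRNA libraries held 25.2, 25.3 and 23.7 CPM (-0.2 ± 0.0584, adjusted p = 0.0049). No siRNA library overlapped the scramble libraries of its medium. Against the unstimulated effect, the siRNA effect differed by -0.32 ± 0.0679 with TGF-β (adjusted p = 0.0013) and by 0.28 ± 0.0746 with PDGF-BB (adjusted p = 0.011).

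Prelp encodes a class II member with a basic amino-terminal stretch that binds heparan sulfate and collagen. It was the second most abundant of the 9 per length in unstimulated cells, and fell with both stimuli. Unstimulated scramble libraries held 437, 466 and 458 CPM, TGF-β libraries 103, 120 and 120 CPM and PDGF-BB libraries 87.8, 97.5 and 88.1 CPM. The decreases were -1.99 ± 0.0584 (adjusted p = 2e-17) and -2.32 ± 0.0591 (adjusted p = 8.4e-18), with no overlap with unstimulated cells.

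The siRNA effect on Prelp changed sign with the medium. With TGF-β the siRNA libraries held 42.7, 41.6 and 38.5 CPM, 35.8% of the scramble mean (-1.48 ± 0.0631, adjusted p = 1.9e-14). With PDGF-BB they held 106, 116 and 109 CPM, above all scramble libraries (0.28 ± 0.0589, adjusted p = 0.00035). Both differences from the unstimulated effect were called, at -1.33 ± 0.0836 for TGF-β (adjusted p = 1.7e-10) and 0.43 ± 0.0806 for PDGF-BB (adjusted p = 0.00079). In siRNA cells TGF-β left 10% of the unstimulated level (-3.32 ± 0.0637, adjusted p = 5e-21). The unstimulated effect was small, with 412, 417 and 397 CPM (-0.15 ± 0.0551, adjusted p = 0.026). It was lost without scramble replicate 2 (-0.13, adjusted p = 0.11) or 3 (-0.14, 0.086) or siRNA replicate 1 (-0.15, 0.061) or 3 (-0.12, 0.12), with adjusted p from 0.0038 to 0.12 over the alternatives.

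Lum encodes lumican, a class II keratan sulfate proteoglycan, and was close to the limit of detection. It had 15, 21 and 7 counts in the unstimulated scramble libraries, 2, 4 and 7 with TGF-β and 0, 4 and 1 with PDGF-BB. In the siRNA libraries it had 22, 16 and 17 counts without a stimulus, 35, 30 and 39 with TGF-β and 32, 35 and 28 with PDGF-BB. The siRNA and scramble libraries were apart with both stimuli and overlapped without. The siRNA effect was 2.93 ± 0.476 with TGF-β (adjusted p = 2.2e-05) and 4.14 ± 0.568 with PDGF-BB (adjusted p = 1.8e-06), against 0.45 ± 0.42 without a stimulus (adjusted p = 0.38), all log2. The differences between media were 2.48 ± 0.652 (adjusted p = 0.0077) and 3.68 ± 0.744 (adjusted p = 0.0015). These fold sizes rest on few scramble counts, and over the alternatives the siRNA effect ranged from 2.61 to 3.46 with TGF-β and from 3.6 to 5.68 with PDGF-BB. The differences between media ranged from 2.05 to 3 for TGF-β and from 3.14 to 5.22 for PDGF-BB.

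In scramble cells Lum fell with PDGF-BB (-2.98 ± 0.631, adjusted p = 0.00077), a size that ranged from -4.52 to -2.44 over the alternatives. With TGF-β it was called lower although the groups overlapped (-1.48 ± 0.53, adjusted p = 0.025). The TGF-β call was lost without unstimulated scramble replicate 2 (-1.05, adjusted p = 0.15) or TGF-β scramble replicate 1 (-1.15, 0.11) or 2 (-1.39, 0.076). In siRNA cells TGF-β raised Lum (1 ± 0.381, adjusted p = 0.029), a call lost without replicate 2 or 3 of the unstimulated siRNA libraries (0.89, adjusted p = 0.091, and 0.94, 0.076) or replicate 1 or 3 of the TGF-β siRNA libraries (0.96, 0.067, and 0.93, 0.079). The PDGF-BB change in siRNA cells was not called (0.7 ± 0.384, adjusted p = 0.16). TGF-β against PDGF-BB in scramble cells was not called (1.5 ± 0.773, adjusted p = 0.1), and passed without PDGF-BB replicate 2 (3.04, adjusted p = 0.015).

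Ogn encodes osteoglycin, also named mimecan, a class III member known in vascular smooth muscle. It fell with both stimuli to nearly the same level. Unstimulated scramble libraries held 140, 136 and 144 CPM, TGF-β libraries 32.6, 29.9 and 33.2 CPM and PDGF-BB libraries 27.2, 30.5 and 33.4 CPM. Both stimulated groups lay far below the unstimulated libraries (-2.14 ± 0.0722, adjusted p = 2e-16, and -2.2 ± 0.0717, adjusted p = 4.7e-16) and overlapped each other. Without a stimulus the siRNA libraries held 129, 139 and 149 CPM and overlapped scramble (-0.01 ± 0.0646, adjusted p = 0.89). With TGF-β they held 16.2, 13.5 and 13.4 CPM, below every scramble library (-1.15 ± 0.0862, adjusted p = 2.4e-10). With PDGF-BB they held 25.2, 24.4 and 23.9 CPM, also below (-0.31 ± 0.0787, adjusted p = 0.0017).

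The siRNA effect on Ogn differed from the unstimulated effect by -1.14 ± 0.108 with TGF-β (adjusted p = 7.4e-08) and by -0.3 ± 0.102 with PDGF-BB (adjusted p = 0.043). The PDGF-BB difference was lost on leaving out any of 9 of the 12 libraries concerned. They were scramble unstimulated replicate 1 (-0.3, adjusted p = 0.059), 2 (-0.29, 0.091) or 3 (-0.33, 0.052), siRNA unstimulated replicate 2 (-0.31, 0.066) or 3 (-0.25, 0.11), scramble PDGF-BB replicate 2 (-0.3, 0.055) or 3 (-0.23, 0.14), and siRNA PDGF-BB replicate 2 (-0.3, 0.081) or 3 (-0.29, 0.095). Its adjusted p ran from 0.011 to 0.14 over all alternatives.

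Several of the genes sit in clusters of the family in the genome (GRCm38, GENCODE M21). Aspn (chr13:49544443-49567565) and Ogn (chr13:49608046-49624501) lie 40.5 kb apart on the plus strand, with Omd between them and Ecm2 11.7 kb before Aspn. These neighbours did not move alike with TGF-β in scramble cells: Aspn rose by 1.63 and Ecm2 by 0.66 ± 0.269 (adjusted p = 0.048), while Ogn fell by 2.14 and Omd, which encodes osteomodulin, fell by 0.95 (SE 0.153, adjusted p = 2e-05), all log2. Ecm2 was low, at means of 1.21 CPM unstimulated and 1.93 CPM with TGF-β, and its call lay just under the threshold. With PDGF-BB, Omd fell by 2.22 (SE 0.17, adjusted p = 7.6e-10), beside a fall of 2.2 for Ogn. Under the siRNA with TGF-β, Omd fell by 0.83 (SE 0.178, adjusted p = 5e-04), beside 1.15 for Ogn, and Aspn rose. Cenpp overlaps Aspn and Ogn on the opposite strand, with 1253 counts over the 18 libraries.

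Dcn (chr10:97479609-97518143) and Lum (chr10:97565128-97572703) lie 47 kb apart on the plus strand, with Kera 34.2 kb beyond Lum. Kera, which encodes the corneal keratocan, was at 0 in all 18 libraries. Dcn and Lum both fell with each stimulus in scramble cells and both rose under the siRNA with PDGF-BB. With TGF-β in siRNA cells they went apart, as Dcn fell (-2.26 ± 0.086, adjusted p = 7.5e-16) and Lum was called higher. Prelp (chr1:133910304-133921414, minus strand) and Fmod (chr1:134037254-134048277, plus strand) lie 116 kb apart. Both fell with each stimulus, but the siRNA with PDGF-BB raised Prelp and lowered Fmod.

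Ogn and Prelp, on different chromosomes, had the most similar course of any pair among the 9. The mean absolute difference of their centred log2 group means over the 6 groups was 0.184, and each was the nearest gene to the other among about 10306 candidates with a mean of at least 5 CPM. Their promoter windows are shown with that of Aspn, the neighbour of Ogn that went the opposite way with TGF-β. Each line is the 250 bases before the RefSeq start (GRCm38.p6), 5′ to 3′ on the gene's strand, with matches to the searched motifs in capitals.
Ogn (chr13:49607765-49608014, plus strand): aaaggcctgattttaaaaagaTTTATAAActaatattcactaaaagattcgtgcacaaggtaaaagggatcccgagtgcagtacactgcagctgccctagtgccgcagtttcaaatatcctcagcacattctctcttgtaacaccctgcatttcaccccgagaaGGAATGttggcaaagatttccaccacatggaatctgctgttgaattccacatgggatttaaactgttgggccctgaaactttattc
Prelp (chr1:133921402-133921651, minus strand): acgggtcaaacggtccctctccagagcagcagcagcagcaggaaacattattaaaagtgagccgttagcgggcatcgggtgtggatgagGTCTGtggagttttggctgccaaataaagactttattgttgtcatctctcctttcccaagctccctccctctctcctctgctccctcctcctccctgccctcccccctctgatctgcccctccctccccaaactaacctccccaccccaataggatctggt
Aspn (chr13:49544193-49544442, plus strand): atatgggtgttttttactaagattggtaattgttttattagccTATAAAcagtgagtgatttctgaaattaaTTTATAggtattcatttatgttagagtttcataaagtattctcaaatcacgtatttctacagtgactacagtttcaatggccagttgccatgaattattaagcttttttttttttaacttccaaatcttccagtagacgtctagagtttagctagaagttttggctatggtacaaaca

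The motifs searched on both strands were CAGAC (a core bound by SMAD proteins), TGANTCA (AP-1), GGAATG (TEAD), TATAAA and the CArG box. In Ogn the capitals mark a GGAATG at -86 to -81 and TATAAA on both strands, at -229 to -224 and -227 to -222, which overlap each other. In Prelp they mark CAGAC on the opposite strand at -161 to -157, and in Aspn TATAAA on both strands at -207 to -202 and -178 to -173. Ogn and Prelp thus shared none of the motifs found. Of 32851 RefSeq windows of this length, 42.2% hold CAGAC, 12.4% TATAAA, 12.6% GGAATG, 6.75% TGANTCA and 1.47% a CArG box. Of the other members, the Fmod window held 2 CAGAC matches and those of Bgn, Podn and Vcan held none of these motifs. Dcn and Lum had no window in the RefSeq table.

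Podn encodes podocan, a class V member known in smooth muscle cells. Unstimulated scramble libraries held 13.6, 12.8 and 14.3 CPM, TGF-β libraries 17.8, 18.1 and 17.8 CPM and PDGF-BB libraries 4.6, 5.4 and 6.57 CPM. The 3 groups did not overlap, with a rise of 0.4 ± 0.0875 with TGF-β (adjusted p = 0.00068) and a change of -1.29 ± 0.0999 with PDGF-BB (adjusted p = 8.2e-10). The siRNA libraries held 26.5, 25 and 24.9 CPM without a stimulus (0.9 ± 0.0845, adjusted p = 7.4e-09) and 26.9, 29.3 and 28.6 CPM with TGF-β (0.66 ± 0.0832, adjusted p = 7.7e-07). Both groups lay above their scramble libraries, and the siRNA effect was not called as different between these media (-0.25 ± 0.119, adjusted p = 0.15). TGF-β was not called in siRNA cells (0.15 ± 0.0801, adjusted p = 0.11), but passed in a fit of only the groups compared (0.16, adjusted p = 0.04).

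With PDGF-BB the siRNA libraries of Podn held 6.31, 6.99 and 7.14 CPM and overlapped scramble (0.3 ± 0.109, adjusted p = 0.024). This call was lost without a low-count filter (0.28, adjusted p = 0.081), in a fit of only the groups compared (0.3, 0.12), without scramble replicate 1 (0.18, 0.19) or 2 (0.28, 0.063) and without siRNA replicate 2 (0.28, 0.07) or 3 (0.27, 0.076). Its adjusted p ran from 0.0016 to 0.19. The siRNA effect was smaller with PDGF-BB than without a stimulus (difference -0.61 ± 0.138, adjusted p = 0.0039). Scp2 overlaps the span of the longest Podn transcript on the same strand (chr4:108014791-108096445), with 89803 counts in all, and reads in shared stretches may be uncertain.

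Set side by side, the siRNA effects differed between TGF-β and unstimulated cells for 7 of the 9 genes, in the positive direction for Bgn, Lum and Vcan and the negative for Dcn, Fmod, Prelp and Ogn, where 12.2% and 11% of all genes were called in these directions. Between PDGF-BB and unstimulated cells they differed for 7 as well, positive for Dcn, Fmod, Lum, Prelp and Vcan and negative for Ogn and Podn, against 9.51% and 9.32%. Dcn, Fmod and Prelp were called in opposite directions in these comparisons, which share the unstimulated libraries. As given above, the TGF-β call of Dcn and the PDGF-BB call of Ogn were lost when certain single libraries were left out. In scramble cells, TGF-β left 6 members higher than PDGF-BB did (Bgn, Aspn, Fmod, Prelp, Podn, Vcan) and Dcn lower, where 28% of all genes were higher and 29% lower. Fmod showed the widest of these gaps, at 2.03 ± 0.0533 (adjusted p = 1.3e-18), and Podn followed at 1.69 ± 0.0985 (adjusted p = 1.9e-12), both log2.

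The fibrillar and associated collagens to which these proteoglycans bind were listed as 10 genes, all tested. With TGF-β in scramble cells 7 rose and 3 fell (median log2 fold change 1.23), and with PDGF-BB 3 rose and 5 fell (median -0.16). Of all genes, 23.4% rose and 24.8% fell with TGF-β, and 16.9% and 19.2% with PDGF-BB. Col5a2 rose with TGF-β by 2.29 ± 0.067 (adjusted p = 1.8e-17), Col1a2 by 1.48 ± 0.0516 (adjusted p = 3.5e-16) and Col1a1 by 1.58 ± 0.0589 (adjusted p = 1.1e-15). The 3 collagens that fell were Col6a1, Col6a2 and Col14a1. Among the members, Bgn, Aspn, Podn and Vcan rose in the same comparison, and Prelp, Ogn, Fmod, Dcn and Lum went down. Under the siRNA 4 collagens rose and 3 fell without a stimulus, 6 rose and 3 fell with TGF-β, and 8 rose and none fell with PDGF-BB. Of all genes, 25.9% rose and 27.5% fell without a stimulus, 24.1% and 24.3% with TGF-β, and 29.4% and 29.9% with PDGF-BB. Col3a1 rose under the siRNA with PDGF-BB by 1.39 ± 0.0635 (adjusted p = 5e-14). Its mean was also higher under the siRNA without a stimulus (536 against 359 CPM) and with TGF-β (1190 against 807 CPM).

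Markers of smooth muscle and of other cell types moved beside the members too. The summed smooth muscle markers were 6610 to 7160 CPM with TGF-β and 955 to 981 CPM with PDGF-BB in scramble cells. In siRNA cells they were 990 to 1110, 3240 to 3400 and 374 to 383 CPM without a stimulus, with TGF-β and with PDGF-BB. Acta2 and Tagln held most of the sum, at means of 4230 and 2200 CPM with TGF-β in scramble cells. By gene in scramble cells, 6 rose and 1 fell with TGF-β, and 1 rose and 6 fell with PDGF-BB. Des went the other way, from a mean of 8.57 CPM to 2.32 with TGF-β and 15.9 with PDGF-BB. Under the siRNA none rose, and 5 fell without a stimulus, 7 with TGF-β and 6 with PDGF-BB. The 7 chondrocyte markers, Acan among them, summed to 319 to 335 CPM in unstimulated scramble cells and 1770 to 2020 CPM with TGF-β. All 6 that were tested rose, and Col9a1 was at 0 in the unstimulated scramble group. With PDGF-BB the sum was 156 to 164 CPM, and none rose and 5 fell. In siRNA cells the sums were 224 to 234 CPM without a stimulus, 1440 to 1560 with TGF-β and 161 to 167 with PDGF-BB. Under the siRNA 2 rose and 2 fell without a stimulus, 3 rose and 3 fell with TGF-β, and 2 rose and 2 fell with PDGF-BB. The 6 mesothelial markers summed to 155 to 166 CPM in unstimulated scramble cells, 62.1 to 64.6 CPM with TGF-β and 194 to 219 CPM with PDGF-BB. In siRNA cells they summed to 90.5 to 93.2 CPM without a stimulus, 25.3 to 31.1 CPM with TGF-β and 81.5 to 90 CPM with PDGF-BB. By gene in scramble cells, none rose and 4 fell with TGF-β, and 3 rose and 1 fell with PDGF-BB. With PDGF-BB the mean of Krt19 went from 32.5 to 92.5 CPM and that of Upk3b from 43.9 to 11.7 CPM. Under the siRNA none of the 6 rose and 3 fell without a stimulus, 1 rose and 3 fell with TGF-β, and none rose and 4 fell with PDGF-BB. The 10 endothelial markers summed to 104 to 123 CPM in unstimulated scramble cells, 123 to 139 CPM with TGF-β and 124 to 143 CPM with PDGF-BB. In siRNA cells they summed to 86.2 to 102, 116 to 123 and 95.9 to 114 CPM. With TGF-β in scramble cells 1 rose and 4 fell, and with PDGF-BB 2 rose and none fell. The marker that rose with TGF-β was Erg, named after its values were seen, from a mean of 7.01 to 45.4 CPM. Under the siRNA 1 rose and 4 fell without a stimulus, 1 rose and 2 fell with TGF-β, and none rose and 6 fell with PDGF-BB. The 7 macrophage markers summed to 17.6 to 20.4 CPM in unstimulated scramble cells, 9.26 to 10.7 CPM with TGF-β and 24 to 26 CPM with PDGF-BB. In siRNA cells they summed to 19.5 to 20.9, 11.9 to 14.8 and 24.7 to 27 CPM. Of the 5 that were tested, 1 rose and 4 fell with TGF-β in scramble cells, and 2 rose and 1 fell with PDGF-BB. Under the siRNA 1 rose and 2 fell without a stimulus, 1 rose and none fell with TGF-β, and 1 rose and 1 fell with PDGF-BB. Fcgr1 was at 0 in the scramble groups without a stimulus and with TGF-β, and Adgre1 in the siRNA group with PDGF-BB. Beside these counts, 23.4% of all genes rose and 24.8% fell with TGF-β in scramble cells, and 16.9% and 19.2% with PDGF-BB. Under the siRNA the shares were 25.9% and 27.5% without a stimulus, 24.1% and 24.3% with TGF-β, and 29.4% and 29.9% with PDGF-BB. The part of these cell types in the changes of the 9 genes was not tested.

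For each member, the genes with the most similar course over the 6 group means were found by the same measure, the mean absolute difference of centred log2 CPM. For Bgn they were Phf10 (0.053) and Plcl1 (0.06), for Dcn Sfrp2 and Il6ra (0.217 each), and for Aspn Zbed5 (0.0958) and Spsb1 (0.141). For Podn they were Colec11 (0.181) and Boc (0.208), and for Vcan Col6a3 (0.186) and Anxa8 (0.189). Fmod lay nearest to Upk3b (0.297) and Bmp4 (0.349), and Lum to Hr (0.487) and Rspo3 (0.542). After each other, Prelp lay nearest to Sult1a1 (0.356) and Ogn to Id2 (0.37). The measure is larger for genes that vary more, and it describes 6 means only.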

How the data were processed

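RNA was sequenced from 18 libraries of cultured mouse aortic smooth muscle cells. The submitters' processing notes name HISAT2 2.2.1, StringTie 2.1.6 and the build mm10. The authors deposited estimated counts for 57180 genes and 149132 transcripts, of which the gene counts were rounded to whole numbers here. No source used here gives the annotation release or the counting strand. Coordinates are from GENCODE M21 and promoter windows from RefSeq, both GRCm38.

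All 18 libraries were fitted together in edgeR 4.0.16 (R 4.3.3, limma 3.58.1) with TMM factors (0.925 to 1.07), filterByExpr at a minimum count of 10 (15832 genes kept) and quasi-likelihood tests (12 residual degrees of freedom). Benjamini-Hochberg adjustment of the p-values ran over all genes within each of 10 comparisons. A standard error is the log2 fold change divided by the square root of F. Counts per length divide each transcript's count by its length and sum over the gene. Simulated data with known changes were used to test the fit.

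The 9 members, the lists, the markers and the tests were chosen with earlier results of these data known. All 9 members are named in each comparison. From each list with at least 3 called genes the rule names the 3 with the smallest p. Here it was applied to the stimuli in scramble cells and to the siRNA in each medium, and not every gene it gives is printed. Genome neighbours and 2 most similar genes are named by rule, and list genes named beyond these were chosen after their values were seen.

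Same-numbered replicates deviated together for PDGF-BB against unstimulated scramble cells (correlations 0.36, 0.116 and 0.2) and for Itgav siRNA against scramble with PDGF-BB (0.391, 0.123 and 0.228). The labels do not state a pairing, so a pairing by number in these comparisons rests on these correlations alone. The main tests did not use it, and a replicate block was fitted only as an alternative. Alternatives were another or no low-count filter, DESeq2 size factors, DESeq2 1.42.0, a replicate block, only the groups compared, summed transcript counts and leaving out each library. Python 3.11.15, pandas 2.3.3, numpy 2.4.6 and matplotlib 3.10.9 were used. No proteins are shown.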

Additional observations from a re-analysis of the deposited data

Results flagged for a closer look

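The results below were singled out because the effect of Itgav siRNA on a member differed between media by a test of the difference itself in edgeR. Each value is the siRNA log2 fold change with the stimulus minus that without a stimulus.

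For TGF-β these were Prelp (-1.33), Ogn (-1.14), Dcn (-0.4) and Fmod (-0.32) on the negative side, and Lum (2.48), Vcan (0.88) and Bgn (0.2) on the positive side. For PDGF-BB they were Lum (3.68), Vcan (0.97), Dcn (0.46), Prelp (0.43) and Fmod (0.28) on the positive side, and Podn (-0.61) and Ogn (-0.3) on the negative side. Both sets share the unstimulated libraries, so they are not independent of each other. The Dcn call for TGF-β and the Ogn call for PDGF-BB were lost when certain single libraries were left out.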

How the results depend on the processing

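Of 1264 values of a member under an alternative, 1225 kept their side of the threshold, 32 lost a call and 7 gained 1. No called value changed sign, and of the values that were not called Ogn changed sign under the siRNA without a stimulus, from -0.06 to 0.04 on the log2 scale beside -0.01. The number of members called stayed within 5 to 9 in every comparison and alternative. With a replicate block no call of a member changed in any comparison, and Vcan rose under the siRNA by 0.73 with TGF-β and 0.82 with PDGF-BB, while Prelp fell by 1.48 with TGF-β. In comparisons without the pairing named above samples share only a number, and 9 of the 18 libraries deviated most like their own number. Neither the DESeq2 size factors nor summed transcript counts changed a call of a member. All changes of a call came from leaving out a library, from no low-count filter (Vcan and Podn, both for the siRNA) or from fitting only the groups compared (Podn), and the cause was not tested. Lum could not be fitted with a mean of at least 1 CPM, and it lacked a value in a few fits by DESeq2 or of only the groups compared. Depth limits Lum above all, with 0 to 39 counts in a library.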

Other observations

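Heparan sulfate proteoglycans, the other large family of cell-surface and basement-membrane proteoglycans, were listed as 12 genes, of which 11 were tested. In scramble cells 6 rose and 4 fell with TGF-β, and 4 rose and 5 fell with PDGF-BB. Of all genes, 23.4% rose and 24.8% fell with TGF-β, and 16.9% and 19.2% with PDGF-BB. Gpc1, a glypican anchored to the membrane by lipid, rose with TGF-β by 1.45 ± 0.087 (adjusted p = 4.3e-12), Sdc3, a syndecan, by 0.68 ± 0.0498 (adjusted p = 1.4e-10), and Gpc4 by 0.49 ± 0.0435 (adjusted p = 3.6e-09), all log2 by edgeR. Under Itgav siRNA 6 rose and 5 fell without a stimulus, 5 rose and 5 fell with TGF-β, and 6 rose and 4 fell with PDGF-BB. Of all genes, 25.9% rose and 27.5% fell without a stimulus, 24.1% and 24.3% with TGF-β, and 29.4% and 29.9% with PDGF-BB.

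Beyond the 9 members, 9 other genes of the small leucine-rich family were listed and 6 were tested. Their summed level was low, at 21.2 to 43.4 CPM over all libraries, and Kera was at 0 in every group. In scramble cells 2 rose and 1 fell with TGF-β, and 2 fell and none rose with PDGF-BB. Of all genes, 23.4% rose and 24.8% fell with TGF-β, and 16.9% rose and 19.2% fell with PDGF-BB. Under the siRNA 2 rose without a stimulus, 1 rose and 1 fell with TGF-β, and 2 rose and 1 fell with PDGF-BB. Of all genes, 25.9% rose and 27.5% fell without a stimulus, 24.1% and 24.3% with TGF-β, and 29.4% and 29.9% with PDGF-BB. Tsku, which encodes the secreted protein tsukushi, rose under the siRNA with PDGF-BB by 0.43 ± 0.0727 (adjusted p = 2.5e-05). Its mean was also higher under the siRNA without a stimulus (24.8 against 16.7 CPM) and with TGF-β (37 against 19.2 CPM).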
